A study of Arabidopsis thaliana with 16 samples.

Results

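The SAUR genes, for small auxin up RNA, are the family of short transcripts that accumulate within minutes of auxin treatment. Members were taken by their annotation alone, as nuclear protein-coding genes of TAIR10 with a symbol or synonym of SAUR and a number, or with a product named as a SAUR-like auxin-responsive protein. This gave 80 genes of 27444, of which 78 matched by product and 2, SAUR79 and AT5G01830, by symbol only. AT5G01830 carries the symbol SAUR21 but its product is an ARM repeat protein. AT5G18030, a SAUR-like gene, also carries the name SAUR21, and AT1G29490 and AT1G29510 share the name SAUR68, so these 4 genes are given by locus. The members were 396 to 2865 bp long with a median of 815 bp, against a median of 2078 bp for all protein-coding genes, and 73 of 80 had a single exon. They were therefore set against the 4313 other protein-coding genes shorter than 1000 bp, called other short genes here, whose median length was 675 bp.

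H2A.Z and H3 were measured by ChIP-seq in shoots of Arabidopsis thaliana, accession Columbia-0, 13 days after germination. The 4 genotypes were the arp6-1 mbd9-3 double mutant, the arp6-1 and mbd9-3 single mutants, both T-DNA insertion alleles, and wild type (WT), which carries neither insertion. Each genotype had 2 replicates from seedlings grown on separate plates in long days on medium with sucrose, and each replicate was split into 1 H2A.Z and 1 H3 library, which makes 16 libraries. The H2A.Z antibody was raised against the proteins HTA9 and HTA11. Shoots hold many cell types, and fewer cells with H2A.Z at a gene cannot be told apart from less H2A.Z in each cell.

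The values were lists of peak summits, the single base where a called peak is highest, with a score that is the −log10 of the q-value. Of the 16 lists, 8 set the H2A.Z library of a genotype over its own H3 library, and they held 1243 to 29980 summits. The other 8 set H2A.Z of one genotype over H2A.Z of another with the same replicate number, and mark places with less H2A.Z in the mutant, called lost summits here. A gene was counted in a replicate when a summit lay between its transcription start site (TSS) and its end, and counted as called when both replicates had such a summit. No read counts or depths were given, and a gene without a summit may have fallen short of the peak caller's q-value limit of 0.01. With 2 replicates against 2 no exact two-sided test can give a p below 0.333, so counts, shares and replicate values are given without a test. The lists hold no transcript level, so the inserted genes themselves could not be checked.

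H2A.Z is a variant of histone H2A that the SWR1 complex places into nucleosomes, often just downstream of the TSS, and in plants also over the bodies of genes that respond to signals. ARP6 is a subunit of SWR1, and MBD9 is a protein with a methyl-CpG-binding domain. Auxin binds TIR1/AFB receptors, which leads to degradation of Aux/IAA repressors and frees ARF transcription factors to act on promoters, those of many SAUR genes among them. SAUR proteins of the SAUR19 group inhibit PP2C.D phosphatases, which keeps plasma membrane H+-ATPases active and favours cell expansion.

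Many SAUR genes arose by tandem duplication, and the 6 genes of the SAUR19 to SAUR24 group, which lie within 21536 bp at chr5:5962773-5984308, show how alike such copies can be. The first 60 coding bases of each are given 5′ to 3′ from TAIR10.1, with capitals for bases that differ from the most frequent base at that position, or from that of SAUR19 where bases tied. These copies carried no summit in any list, and only reads with a single place in the genome were kept. Whether the absence of summits is linked to read mapping was not tested.
SAUR19: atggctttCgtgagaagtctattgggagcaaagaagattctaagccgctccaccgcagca
SAUR20: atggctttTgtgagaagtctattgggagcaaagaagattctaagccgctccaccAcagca
AT5G18030: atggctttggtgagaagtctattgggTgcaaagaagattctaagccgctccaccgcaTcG
SAUR22: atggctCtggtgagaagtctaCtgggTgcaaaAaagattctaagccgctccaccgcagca
SAUR23: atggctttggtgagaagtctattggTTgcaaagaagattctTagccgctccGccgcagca
SAUR24: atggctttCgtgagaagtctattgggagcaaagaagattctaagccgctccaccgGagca
Between 1 and 4 of the 60 bases stood in capitals in each gene. Among the 4 copies with coding sequences of 273 bp, pairs were 89.7 to 95.2% identical over that length, with a median of 92.3%.

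SAUR genes carried H2A.Z summits about as often as protein-coding genes in general, and the mutants had fewer of them. In arp6-1 mbd9-3, the double mutant, 3 and 4 of the 80 members had a summit in replicates 1 and 2 and 1 had it in both (1.25%, exact 95% interval 0.0316 to 6.77%), against 1.23% of other short genes and 1.48% of all protein-coding genes. In arp6-1, 9 and 25 members had a summit and 8 had it in both (10%, 4.42 to 18.8%), against 7.16% of other short genes and 9.02% of all genes. In mbd9-3, the counts were 34 and 32 members, with 27 in both (33.8%, 23.6 to 45.2%), against 20.4% and 30.5% of the same gene sets. WT had 52 and 44 members with a summit and 42 in both (52.5%, 41 to 63.8%), against 39.6% of other short genes and 51.6% of all genes. These intervals, by the Clopper-Pearson method, cover counting error only. The mean number of members per replicate was 3.5 ± 0.707 in the double mutant, 17 ± 11.3 in arp6-1, 33 ± 1.41 in mbd9-3 and 48 ± 5.66 in WT (SD, n = 2 each). The replicate counts of the 4 genotypes did not overlap, and the same was true of other short genes. Their replicate shares were 2.9 and 2.78% in the double mutant, 8.65 and 16.3% in arp6-1, 23.6 and 27.1% in mbd9-3 and 46.1 and 42.7% in WT. The arp6-1 replicates lay far apart, with 3827 summits in the whole list of replicate 1 and 7506 in that of replicate 2. The 80 members include 16 genes of 1000 bp and over, a length left out of the other short genes. Among the 64 members under 1000 bp, 0% were called in the double mutant, 7.81% in arp6-1, 28.1% in mbd9-3 and 48.4% in WT.

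**Figure D1:**
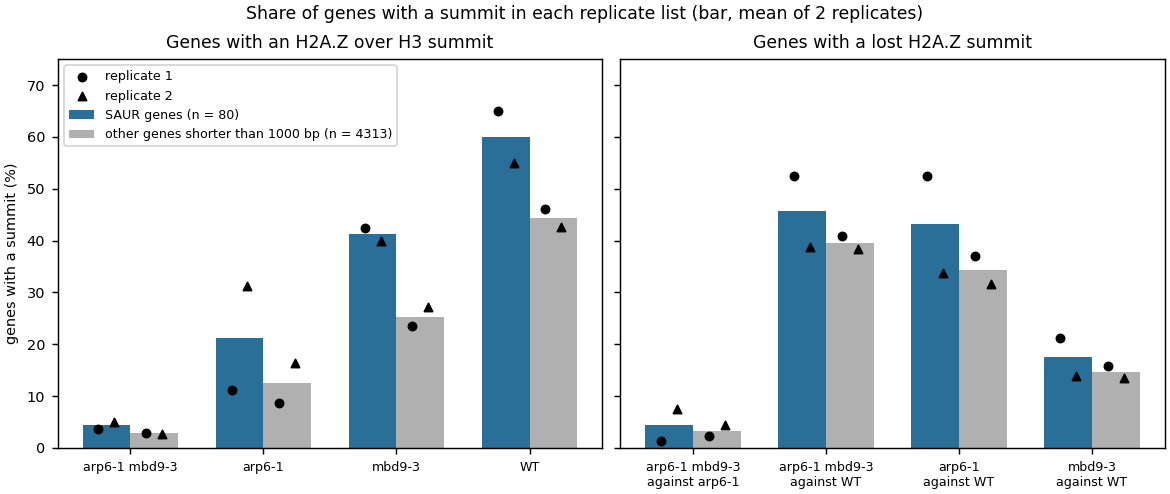
Percent of genes with a summit, for the 80 SAUR genes and the 4313 other genes shorter than 1000 bp, in the H2A.Z over H3 lists (left) and in the lists of lost summits (right). Bars are means of the 2 replicates and points the replicates. In WT, 65 and 55% of SAUR genes had a summit, against 46.1 and 42.7% of other short genes. The SAUR genes include 16 of 1000 bp and over.

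The calls in the 4 genotypes were nested in nearly every member. WT calls covered most mutant calls over all protein-coding genes too. Of 8361 genes called in mbd9-3, 8069 were called in WT, and of 2476 called in arp6-1, 2458 were. Of the 80 genes, 37 were called in no genotype, 16 in WT alone, 18 in mbd9-3 and WT, 7 in arp6-1, mbd9-3 and WT, and 1 in all 4. The remaining gene was SAUR27, called in mbd9-3 with scores of 6.59 and 4.49 but present in WT only in replicate 1, with a score of 2.5. In all, 23 members had no summit in any of the 16 lists and 26 had none in either WT list, and for these 26 the nearest WT summit lay 112 to 29352 bp outside the gene.

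**Figure D2:**
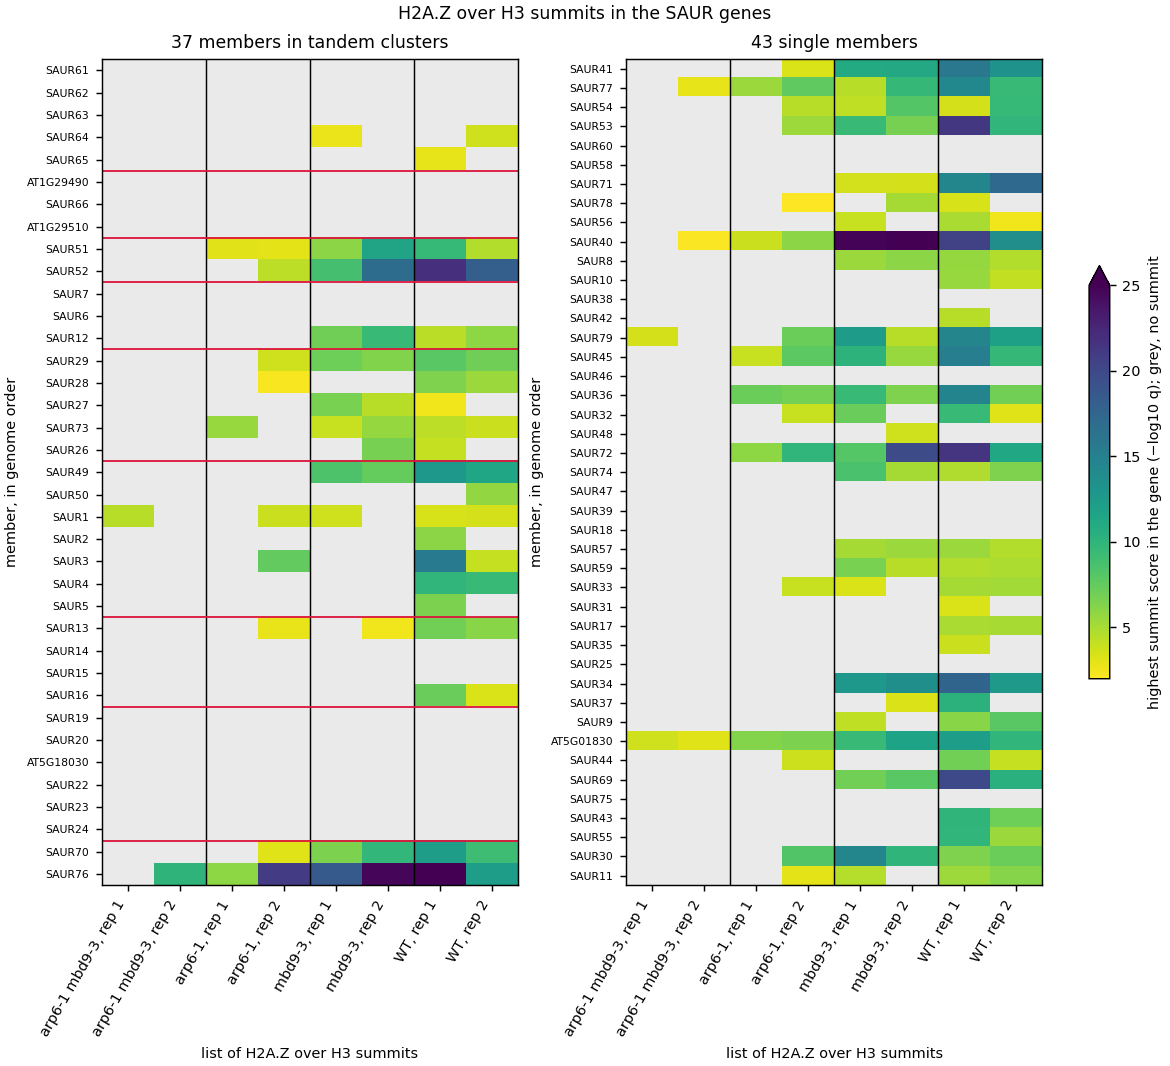
Highest summit score (−log10 q) in each SAUR gene, one row per gene in genome order, in the 8 H2A.Z over H3 lists, with red lines between tandem clusters. Grey marks no summit, and colours are capped at 25. Each score was called against that genotype's own H3 library, so colours are not a measure of H2A.Z amount between genotypes. The whole SAUR19 to SAUR24 cluster is grey.

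The difference in WT between SAUR genes and other genes was not the same in each class of gene length. Among genes of 500 bp to under 1000 bp, 28 of 59 members (47.5%) and 48.7% of 3081 other genes were called in WT. Among genes under 500 bp the shares were 3 of 5 members against 16.9% of 1232 other genes, and at 1000 bp and over they were 11 of 16 members (68.8%) against 53.9% of 23051 other genes. In mbd9-3, 28.8% of members and 26.1% of other genes of 500 bp to under 1000 bp were called. Most members fall in this middle class, where both shares lay close together.

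Losses against WT were read from the lists that set WT H2A.Z over mutant H2A.Z. In the double mutant against WT, 42 and 31 members had a lost summit and 30 had it in both replicates (37.5%), against 34.1% of other short genes and 54.6% of all genes. For arp6-1 against WT, 42 and 27 members had a lost summit, 26 in both (32.5%), against 26.5% and 44.2%. For mbd9-3 against WT the counts were 17 and 11, with 8 in both (10%), against 8.12% of other short genes and 9.78% of all genes. The members' shares were 3.42, 5.98 and 1.88 percentage points above those of other short genes in these 3 comparisons. These differences were not stable in size, and those for the genotypes carrying arp6-1 changed sign in some settings. The double mutant's became -1.19 at a score of at least 5, -1.27 when the 16 members of 1000 bp and over were left out and -6.7 when both sets were held to 500 bp to under 1000 bp, where that of arp6-1 became -0.676. The mbd9-3 difference kept its sign but was 0.335 in that length class, 0.221 against all other genes and 0.256 to 5.44 with a replicate left out. In both comparisons of a genotype carrying arp6-1 the members' shares were below those of all genes. All 3 comparisons use the same WT libraries. In the double mutant against arp6-1, 1 and 6 members had a lost summit and none had it in both (0 of 80, exact upper limit 4.51%), against 1.69% of other short genes and 2.84% of all genes. These lists compare H2A.Z libraries with each other, and how they were scaled to one another is not given in the sources used here.

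Among the 42 members called in WT, 1 (2.38%) was also called in the double mutant, 8 (19%) in arp6-1 and 26 (61.9%, exact 95% interval 45.6 to 76.4%) in mbd9-3. Of the 1709 other short genes called in WT, 3.1% were called in the double mutant, 17.9% in arp6-1 and 49.8% in mbd9-3. A lost summit was present in both replicates in 30 of the 42 (71.4%) for the double mutant, 24 (57.1%) for arp6-1 and 7 (16.7%) for mbd9-3, against 78.1%, 62.1% and 18.4% of the other short genes. The interval of each of these 6 member shares held the share of the other short genes. Of the 14173 genes of any length called in WT, 2.84% were called in the double mutant, 17.3% in arp6-1 and 56.9% in mbd9-3, and 85.1%, 70.6% and 15.4% had a lost summit in these mutants. The 85.1% lay outside the members' interval for the double mutant of 55.4 to 84.3%, but it covers genes of any length. These intervals count members as independent, which tandem neighbours are not, so they are no test of a difference.

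The 8 members with a lost summit in both mbd9-3 replicates were SAUR41, SAUR71, SAUR10, SAUR18, SAUR4, SAUR9, SAUR70 and SAUR43. SAUR71 and SAUR41 belong to a subfamily linked to cell expansion. SAUR71 had scores of 3.59 and 3.45 in mbd9-3 and of 14.4 and 17.1 in WT, no summit in the double mutant or arp6-1, and lost summits in mbd9-3 of 13 and 7.87. SAUR41 had 10.9 and 11.1 in mbd9-3 and 15.8 and 13.3 in WT, with lost summits of 6.3 and 2.59. SAUR43 had no summit in any mutant, scores of 9.91 and 7.05 in WT, and lost summits in mbd9-3 of 12.8 and 8.17. SAUR10 also lacked a summit in every mutant list and had 5.59 and 4.09 in WT, with lost summits in mbd9-3 of 6.59 and 6.23. SAUR43 and SAUR10 were thus marked over H3 only in WT, while SAUR71 and SAUR41 kept a summit in both mbd9-3 replicates. SAUR4 was likewise marked only in WT, at 9.83 and 9.43. SAUR9 had 4.21 in replicate 1 of mbd9-3 and 6.06 and 7.85 in WT. SAUR70 had its lost summits, of 2.87 and 4.23, in the 5′ UTR at 381 and 369 bp from the TSS, where WT had 4.24 and 4.45 and mbd9-3 had no summit. Its highest scores, 6.51 and 9.75 in mbd9-3 and 12.1 and 9.13 in WT, belonged to a second site in the coding sequence, where no loss was called in mbd9-3. SAUR18 had no summit over H3 in any genotype, and its lost summits in mbd9-3 scored 3.37 and 2.35.

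The 51 bases around the lost summit of replicate 1 are given for the members in which these scores were highest, all of them inside the coding sequence, 5′ to 3′ on the gene's strand in TAIR10.1 with the summit base in capitals. The windows lie at chr1:21017571-21017621 (+ strand), chr5:16964869-16964919 (+ strand) and chr2:7834097-7834147 (+ strand).
SAUR71: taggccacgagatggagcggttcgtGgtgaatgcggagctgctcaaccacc
SAUR43: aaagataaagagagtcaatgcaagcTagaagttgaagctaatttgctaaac
SAUR10: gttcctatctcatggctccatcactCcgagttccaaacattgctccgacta
The summits of the same losses in replicate 2 were at position 21017593 on chromosome 1 for SAUR71, against 21017596 in replicate 1, at 16964912 against 16964894 on chromosome 5 for SAUR43, and at 7834141 against 7834122 on chromosome 2 for SAUR10.

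The 8 members that kept a summit in both arp6-1 replicates were SAUR77, SAUR51, SAUR40, SAUR45, SAUR36, SAUR72, AT5G01830 and SAUR76. All 8 nevertheless had a lost summit in arp6-1 against WT in replicate 1. SAUR40 (13 and 9.57), SAUR45 (7.31 and 4.57) and SAUR51 (3.98 and 2.63) had this loss in both replicates. SAUR76 and SAUR77, studied together with SAUR78 for their part in ethylene signalling, were among the 8. SAUR76 scored 10 in replicate 2 of the double mutant, 5.91 and 20.9 in arp6-1, 18.5 and 24.7 in mbd9-3 and 26.4 and 12.2 in WT. SAUR77 scored 2.85 in replicate 2 of the double mutant, 5.45 and 7.6 in arp6-1, 4.5 and 9.64 in mbd9-3 and 14.3 and 9.53 in WT. Neither had a lost summit in mbd9-3. SAUR40 and SAUR72, relatives of SAUR41, scored 3.82 and 6.03, and 5.91 and 9.85, in arp6-1. SAUR36, which promotes leaf senescence, scored 7.14 and 6.78 in arp6-1, 9.44 and 6.41 in mbd9-3 and 14.6 and 6.87 in WT. AT5G01830, the ARM repeat gene, was the only member with a summit in both replicates of the double mutant, with highest scores of 3.7 and 3.1 at 794 and 1812 bp from its TSS. No other member was called there, and this call was lost when summits had to lie within 200 bp of each other, in common regions of extended summits, or at a score of at least 5.

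Of the 7 members with a lost summit in the double mutant against arp6-1, none had it in both replicates. The 6 in replicate 2 were SAUR52, SAUR79, SAUR45, SAUR36, SAUR72 and SAUR76, with scores of 4.48 to 11.9, and all of them also had an arp6-1 summit in that replicate. SAUR30, at 3.91, was the member of replicate 1.

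The 16 members called in WT alone differed in what the mutant lists held. SAUR10, SAUR17, SAUR4, SAUR16, SAUR43 and SAUR55 had no summit over H3 in any of the mutant lists, and the other 10 had one in a single replicate of at least 1 mutant. SAUR17 scored 4.95 and 5.02 in WT, with lost summits of 2.85 and 4.66 in the double mutant and of 2.15 and 4.07 in arp6-1. SAUR55 scored 9.85 and 5.45 in WT, with lost summits of 4.18 and 6.07 in the double mutant and of 4.03 and 8.1 in arp6-1. Both had lost summits in these comparisons in every replicate, and SAUR55 also had one of 3.08 in replicate 1 of mbd9-3. Among the 18 members called in mbd9-3 and WT, SAUR69 scored 6.9 and 7.85 in mbd9-3 and 19.9 and 10.4 in WT, and SAUR30 scored 14.4 and 9.97 in mbd9-3 and 6.41 and 7.21 in WT. Scores in mbd9-3 were lower than those in WT for SAUR69 and higher for SAUR30, but they were called over different H3 libraries. How many members differ in either direction was not counted. In SAUR30 the highest WT summit of replicate 1 lay 157 bp from the TSS, against 460 bp in replicate 2 and 498 and 515 bp in mbd9-3. SAUR69 had a lost summit of 7.94 in replicate 1 of mbd9-3, and SAUR30 had none.

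By the lower of their WT scores, SAUR52 ranked first among the members, at 21.8 and 18, followed by SAUR71, SAUR40, SAUR41 and SAUR34. SAUR40 scored 20.5 and 13.6 in WT, and SAUR34 17.6 and 12.6. All 5 had a lost summit in both replicates of the double mutant and of arp6-1, and 2 of them, SAUR71 and SAUR41, also in mbd9-3. The lost-summit lists use the same WT H2A.Z libraries as this ranking, so these losses are not independent of it. Of all genes called in WT, 85.1% had a lost summit in the double mutant, 70.6% in arp6-1 and 15.4% in mbd9-3. Over all members with a WT summit the median score was 6.89 in replicate 1 (n = 52) and 6.66 in replicate 2 (n = 44), against 7.77 and 6.86 in other short genes.

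Joining members no more than 10 kb apart gave 9 tandem clusters with 37 genes, and 43 members stood alone. In WT, 14 of the 37 clustered members (37.8%) and 28 of the 43 single ones (65.1%) were called, against 39.6% of other short genes and 51.6% of all genes. The clustered and single members were not matched for gene length. Members of 1000 bp and over were called in WT more often (68.8%) than those of 500 bp to under 1000 bp (47.5%). Of the clusters, 3 held no called gene. The clusters SAUR61 to SAUR65, AT1G29490 to AT1G29510 and SAUR19 to SAUR24 held 14 genes, none of which was called over H3 in any genotype. SAUR64 had 2.7 in replicate 1 of mbd9-3 and 3.63 in replicate 2 of WT. SAUR65 had 2.81 in replicate 1 of WT, and it had a lost summit in both replicates of arp6-1, of 4.01 and 6.9. In the cluster of SAUR49, SAUR50 and SAUR1 to SAUR5, 4 of 7 genes were called in WT and all 7 had a summit in at least 1 WT replicate. Only SAUR49 of that cluster, at 8.45 and 7.42 against 12.7 and 11.5 in WT, was called in mbd9-3. In the cluster of SAUR26 to SAUR29 and SAUR73, a group whose SAUR26 to SAUR29 copies act in rosette growth at warm temperature, SAUR29, SAUR73 and SAUR27 were called in mbd9-3 and SAUR29, SAUR73 and SAUR28 in WT. In the cluster of SAUR13 to SAUR16, SAUR13 and SAUR16 were called in WT, whereas SAUR14 and SAUR15 had no summit in any list.

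The empty SAUR19 to SAUR24 cluster was not a stretch without H2A.Z summits. Its span held 13 WT summits over both replicates, all between the SAUR genes, and 3 of the 4 other protein-coding genes inside it were called in WT. The one closest to a member was 272 bp from SAUR19.

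**Figure D3:**
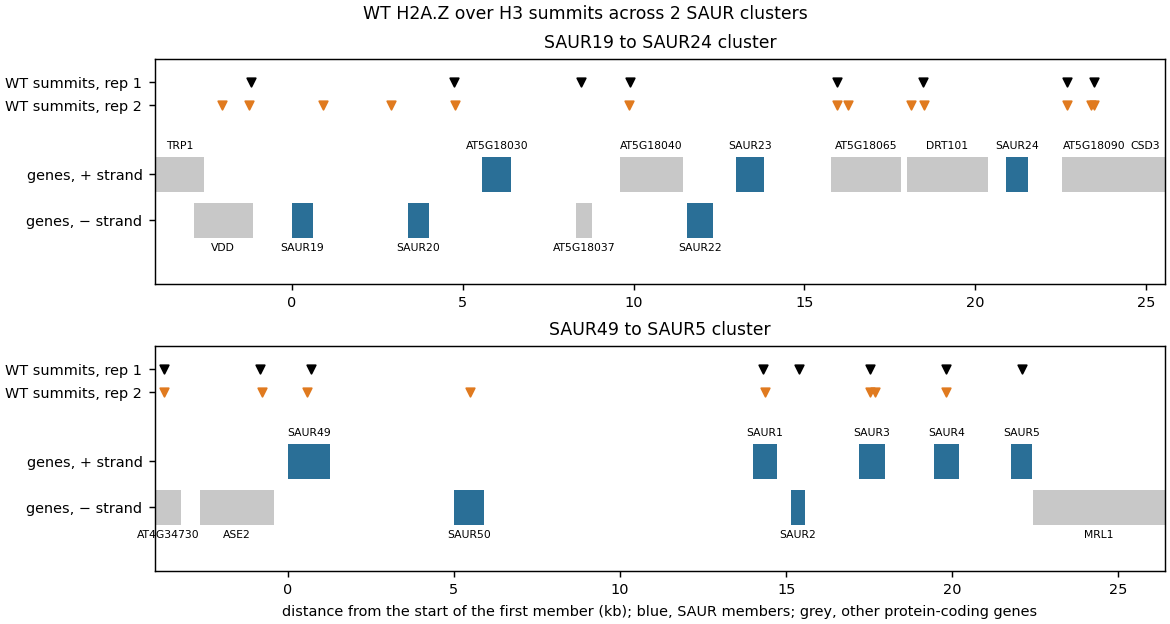
WT H2A.Z over H3 summits (triangles, replicate 1 black and replicate 2 orange) along 2 SAUR clusters, in kb from the start of the first member. SAUR genes are blue and other protein-coding genes grey, above the line of the minus strand when on the plus strand. No summit falls in a gene of the SAUR19 to SAUR24 cluster (top), whereas all 7 genes of the SAUR49 to SAUR5 cluster (bottom) have a summit in at least 1 replicate.

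Because only uniquely mapping reads were kept, the share of unique sequence in each gene was measured. It was taken as the percent of its 50-base windows with no second place in the genome at up to 2 mismatches. The read length is not given in the sources used here, and 50 bases were a choice. This share was 38 to 80% in SAUR19 to SAUR24 (median 67.7%), 32.2 to 99.8% in the 8 members from AT1G29420 to AT1G29510 (median 81.3%), and 88.5 to 100% in the 42 members called in WT (median 100%). When only exact second places counted, it was higher, at 81.5 to 99.4% (median 95.1%), 66.1 to 100% (median 99.5%) and 98.4 to 100% (median 100%). The shares that follow are again those at up to 2 mismatches. Of the 14 other members with no WT summit, 13 had over 90%, with a median of 100%, and the median of other short genes was also 100%. When members under 90% were left out, 14 of 25 clustered members (56%) and 27 of 41 single members (65.9%) were called in WT. SAUR58, SAUR46, SAUR25 and SAUR14 were among the genes without any summit whose windows were all unique. The part of unique sequence in these missing calls was not tested.

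**Figure D4:**
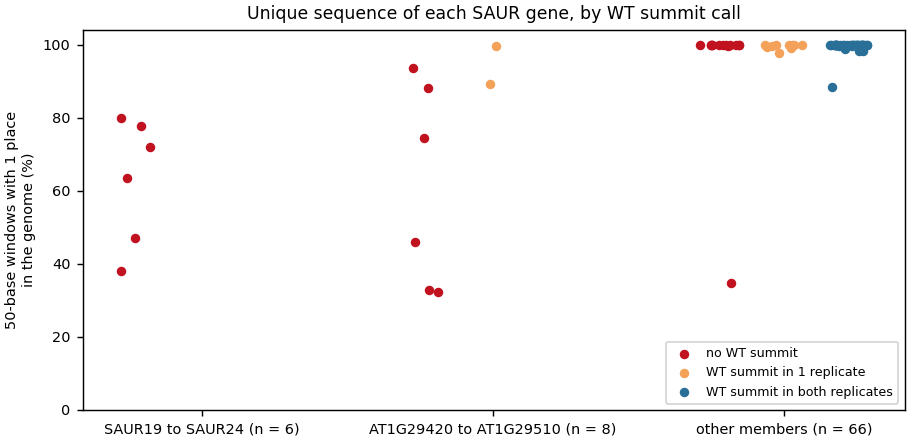
Percent of 50-base windows of each SAUR gene with a single place in the genome at up to 2 mismatches, for the SAUR19 to SAUR24 genes, the AT1G29420 to AT1G29510 genes and the other 66 members. Points are genes, coloured by whether a summit was present in neither, 1 or both WT replicates. No gene called in WT lies below 88.5%.

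Summits of SAUR genes lay mostly in the coding sequence, at distances from the TSS close to those in other short genes. In WT, 58 of 65 summits in replicate 1 and 50 of 54 in replicate 2 fell in coding exons. The same count was not made for other short genes, so it is not a trait of the members alone. As a share of gene length, the median position was 0.399 and 0.411 in members, against 0.423 and 0.427 in other short genes. The median distance of member summits from the TSS was 323 and 329 bp, against 307 and 304 bp in other short genes. Within 250 bp of the TSS lay 30.8 and 27.8% of them, against 35.5 and 35.7%. Where both WT replicates had a summit in a member, the nearest pair was at most 132 bp apart with a median of 18.5 bp, so the place as well as the call was repeated. In mbd9-3 the medians were 342.5 and 392.5 bp. A total of 10 members overlap another protein-coding gene, and a summit in shared bases cannot be assigned to either gene. SAUR44 lies wholly within AT5G03300, the only WT summit of SAUR13 in replicate 2 and that of SAUR31 in replicate 1 lay in shared bases, and so did the highest WT summits of SAUR8, which had others outside them.

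**Figure D5:**
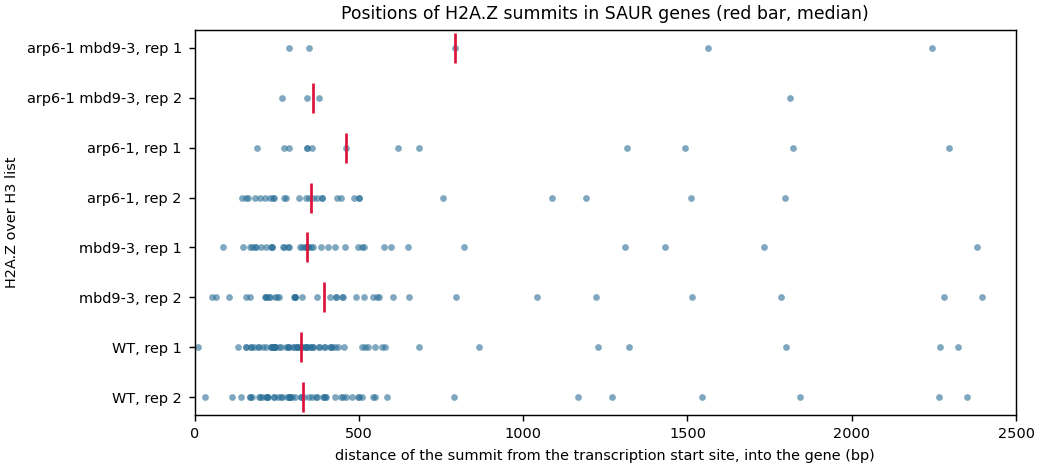
Distance in bp from the TSS of every H2A.Z over H3 summit inside a SAUR gene, one row per list, with the median as a red bar. The WT medians are 323 and 329 bp.

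The promoters, taken as the 250 bases before the TSS in TAIR10.1, were searched on both strands for TGTCTC and TGTCGG, sequences bound by ARF proteins, and for the G-box CACGTG. These motifs can share end bases, but no member's promoter held more than 1 kind. TGTCTC was present in 7 of 80 members (8.75%), against 11.8% of other short genes and 10.9% of all protein-coding genes. All 7 were among the 26 members with no WT summit (26.9%), and none among the 42 called in WT. In other short genes the share was 11.3% of the 2193 genes with no WT summit and 12.2% of the 1709 called in WT. The 7 genes were SAUR62, SAUR66, AT1G29510, SAUR7, SAUR15, SAUR20 and SAUR22, and 5 of them lie in the 3 clusters with no called gene. These 5 had 32.9% (AT1G29510) to 77.7% (SAUR22) unique windows at up to 2 mismatches. Tandem copies are not independent, and a link between motif and summit was not tested. TGTCGG was present in 2 members (2.5%), against 3.55% of other short genes and 4.16% of all protein-coding genes. CACGTG was present in 1 member, SAUR59 (1.25%), against 4.59% and 6.49% of the same gene sets.

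The promoters of SAUR15, the gene first known as SAUR-AC1, and SAUR20 are shown as holders of TGTCTC with no summit in any list, and that of SAUR71 as a gene with a high WT score and lost summits in mbd9-3. They lie at chr4:18125807-18126056 (+ strand), chr5:5966786-5967035 (− strand) and chr1:21017061-21017310 (+ strand), are written 5′ to 3′ on the gene's strand, and have the motifs in capitals.
SAUR15: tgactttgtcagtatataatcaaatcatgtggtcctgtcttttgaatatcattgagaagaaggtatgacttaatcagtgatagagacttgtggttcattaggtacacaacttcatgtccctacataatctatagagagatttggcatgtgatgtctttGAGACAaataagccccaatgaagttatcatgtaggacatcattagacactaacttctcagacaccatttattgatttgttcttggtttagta
SAUR20: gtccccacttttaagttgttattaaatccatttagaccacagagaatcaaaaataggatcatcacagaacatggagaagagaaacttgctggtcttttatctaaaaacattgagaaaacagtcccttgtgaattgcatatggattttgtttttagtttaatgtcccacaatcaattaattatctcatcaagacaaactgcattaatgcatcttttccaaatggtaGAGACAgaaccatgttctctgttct
SAUR71: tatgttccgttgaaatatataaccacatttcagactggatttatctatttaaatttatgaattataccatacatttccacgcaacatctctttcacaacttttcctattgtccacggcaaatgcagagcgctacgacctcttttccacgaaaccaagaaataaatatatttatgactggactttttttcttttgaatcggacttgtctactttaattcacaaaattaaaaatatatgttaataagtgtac
SAUR71 holds none of the 3 motifs in this window, which says only that these letters are not there.

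Members with studied roles fell on both sides. SAUR19 to SAUR24 and SAUR61 to SAUR68, which promote hypocotyl or filament elongation, had 0 of 6 and 0 of 8 genes called in WT. Most of them had under 90% unique windows at up to 2 mismatches, though more when only exact second places counted. SAUR40, SAUR41, SAUR71 and SAUR72 were all called in WT and in mbd9-3, and 2 of the 4 in arp6-1. All 4 had a lost summit in the double mutant and 3 in arp6-1. SAUR16 and SAUR50, which light induces during cotyledon opening, had WT scores of 7.22 and 3.33 for SAUR16 and of 5.75 in replicate 2 alone for SAUR50. SAUR32, which acts in the apical hook, scored 3.89 in replicate 2 of arp6-1, 7.3 in replicate 1 of mbd9-3 and 9.53 and 3.15 in WT. SAUR78 scored 2.02 in replicate 2 of arp6-1, 5.13 in replicate 2 of mbd9-3 and 3.42 in replicate 1 of WT, so it was called in no genotype.

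Other genes of the auxin pathway were listed by function. In WT, 2 of 6 TIR1/AFB receptor genes (33.3%), 18 of 29 Aux/IAA repressor genes (62.1%), 6 of 15 ARF genes (40%) and 8 of 8 group II GH3 genes, which encode auxin conjugating enzymes, were called, against 51.6% of all protein-coding genes. Of the genes downstream of SAUR proteins, 4 of 9 PP2C.D phosphatase genes (44.4%) and 6 of 11 plasma membrane H+-ATPase genes (54.5%) were called. Lost summits in both replicates of mbd9-3 were found in 5 Aux/IAA genes, 3 GH3 genes and 1 ARF gene, and in none of the receptors, phosphatases or H+-ATPases, against 9.78% of all genes. In the double mutant 1 of 29 Aux/IAA genes (3.45%) and 2 of 8 GH3 genes (25%) were called over H3, against 1.48% of all genes. The median lengths of these lists ran from 1740 to 5334 bp, all longer than the SAUR genes, so their shares are not set against those of the members.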

How the data were processed

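ChIP-seq summit lists were analysed for 16 libraries of 4 genotypes. The authors aligned reads to TAIR10 with Bowtie, kept those with a unique place, and discarded duplicates in SAMtools. They then ran MACS2 2.1.1 on each replicate separately (q-value below 0.01, reads extended to 200 bp). The deposited scores are −log10 q-values. Here 1-base summits were assigned to genes of the TAIR10.1 annotation, between TSS and gene end, with Python. The assignment step was checked on simulated summits placed inside 200 genes, of which 100% were recovered. Those genes lay apart from other protein-coding genes, so the check says nothing about calls in overlapping or tandem members. Unique 50-base windows were counted with bwa 0.7.19, and promoters were cut from the TAIR10.1 genome. Members and lists were chosen with earlier results of these data known. Genes were named if they lay in a cluster of 4 or more, had a lost summit in mbd9-3 against WT or in the double mutant against arp6-1, were called in arp6-1 or the double mutant, ranked in the first 5 by lower WT score, or had a studied role. Other genes were named after their values were seen. Groups were compared by counts and shares, and the alternatives tried were 250 bp upstream added, summits extended by 100 bp, summits within 200 bp, a score of at least 5, single replicates, other gene sets and cluster gaps of 5 and 20 kb.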

Additional observations from a re-analysis of the deposited data

How the results depend on the processing

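Precision is limited by 2 replicates, by the absence of depths and by gene sets of unequal length. The lost-summit lists were made within replicate numbers, and no fit with a replicate block was run since no test was made. With a score of at least 5, the members called were 0 in arp6-1 mbd9-3, 5 in arp6-1 and 26 in WT, and members with a lost summit were 17 in arp6-1 mbd9-3, 12 in arp6-1 and 3 in mbd9-3, all against WT. The single double-mutant call was also lost (0) with common regions of extended summits and with replicate summits within 200 bp. Leaving out a replicate gave 3 to 4 members called in arp6-1 mbd9-3, 9 to 25 in arp6-1, 1 to 6 lost in arp6-1 mbd9-3 against arp6-1, 27 to 42 lost in arp6-1 against WT and 11 to 17 lost in mbd9-3 against WT.

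In percentage points, the excess of members over other short genes in WT was 12.9. It was 6.23 at a score of at least 5, 0.859 against all other genes, 32 against genes of up to 600 bp, and 12.3 to 18.9 with a replicate left out. For losses in arp6-1 mbd9-3 against WT the value of 3.42 became -1.19 at a score of at least 5, -17.1 against all other genes, 20.6 against genes of up to 600 bp and 0.354 to 11.7 with a replicate left out. For arp6-1 against WT the value of 5.98 became -11.8 against all other genes, 19.6 against genes of up to 600 bp and 2.1 to 15.4 with a replicate left out. For mbd9-3 against WT the value of 1.88 became 0.221 against all other genes, 5.34 against genes of up to 600 bp and 0.256 to 5.44 with a replicate left out. For arp6-1 mbd9-3 against arp6-1 the value of -1.69 became -1.11 to 3.14 with a replicate left out.

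The following settings were chosen after seeing the data. Without AT5G01830, and with members shorter than 1000 bp only, no member was called in arp6-1 mbd9-3 (0), and 5 of the shorter members were called in arp6-1. With those shorter members the excess over other short genes was 8.81 in WT, and that of losses in arp6-1 mbd9-3 against WT was -1.27. With members and other genes of 500 bp to under 1000 bp the excess was -1.26 in WT. For losses against WT it was -6.7 in arp6-1 mbd9-3, -0.676 in arp6-1 and 0.335 in mbd9-3. The difference of -27.3 between tandem and single members in WT was -20.2 at a score of at least 5, -9.85 with members of at least 90% unique windows, and -25.4 to -21.9 with a replicate left out. The cause of these shifts was not tested. Cluster gaps of 5 and 20 kb kept the count within 1.5 times 37.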
